A study of Mus musculus with 2 samples.

Results

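The genes described here carry out or control the making, storage and release of fat in hepatocytes. They are 35 genes chosen by symbol in 8 roles: regulators, fatty acid synthesis, elongation and desaturation, glycerolipid assembly, triglyceride lipases, uptake and binding, the lipid droplet coat, and export with lipase inhibition. Of these, 32 had a named probe set among the 15644 named genes of the deposited array table. Acaca, Acacb and Agpat2 had none in the annotation used here and were not analysed. The cells were primary hepatocytes, liver parenchymal cells taken from the organ and kept in culture, of a male C57BL/6 mouse aged 9 weeks. After 24 h in culture, 1 group received the solvent dimethyl sulfoxide (DMSO) and the other 10 µmol/l pregnenolone 16α-carbonitrile (PCN), each for 12 h. PCN, a synthetic steroid, is a rodent agonist of the pregnane X receptor (PXR), a nuclear receptor best known for inducing drug-metabolising enzymes. For each group, RNA of 3 samples was combined and put on 1 array, and the labels do not say whether the 3 came from separate cultures. There were no replicates, so "higher" and "lower" describe these 2 arrays, and no difference was tested.

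Hepatocytes build palmitate from citrate-derived acetyl-CoA through ATP citrate lyase, acetyl-CoA carboxylase and fatty acid synthase, then lengthen and desaturate it. The acyl chains are joined to glycerol 3-phosphate in turn, and the triglyceride is stored in perilipin-coated droplets or loaded onto very low density lipoprotein. The transcription factors SREBP-1c and ChREBP drive this programme in response to insulin and glucose, and nuclear receptors of the PPAR and LXR families control many of the same genes. PXR activation is known to be linked with triglyceride accumulation in liver.

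The values are GCRMA intensities, and differences are on the log2 scale, PCN minus DMSO. A log2 intensity of 5 (an intensity of 32) served as a floor. A gene under it in both arrays counted as not measured. Where 1 array was under it, that value was set to the floor, and the fold is then a lower bound. With DMSO 40.6% and with PCN 40.5% of the named genes reached this level, and 6449 were measured in at least 1 array. The PXR target Cyp3a11, the main CYP3A enzyme of mouse liver, went from 8519 to 15919 with PCN, a 1.87-fold difference. Control probe sets for added bacterial and phage RNA, 40 of them past the floor, differed by -0.04 ± 0.11 (mean and SD over probe sets), the lowest by -0.33 and the highest by 0.16. This spread covers labelling and hybridisation and not differences between cultures. The 3 probe sets along Actb differed by 0.04, 0.05 and 0.04 and those along Gapdh by -0.0004, -0.03 and 0.009 from the 3' to the 5' part. Of 6 hepatocyte markers, 5 were measured, from -0.21 for Hnf4a to 0.07 for Serpina1a, and Tat, at 23.9 and 14.9, was under the floor.

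The lipid genes differed between the arrays about as much as measured genes in general, and in either direction. Of the 32 genes, 28 were measured, both arrays reaching the floor for 26, and 4 were under it in both. With PCN, 11 of the 28 were higher and 17 lower, while 57.6% of all measured genes were higher and 42.4% were lower. Plin5 and Pparg, 2 of the 17, reached the floor with DMSO alone, so they could only count as lower. Among all 6449 measured genes, 220 reached the floor in 1 array alone. The median log2 difference of the lipid genes was -0.04, against 0.03 over all measured genes. Within 1 SD of the controls were 14 of the 28 lipid genes and 3053 of all 6449 measured genes, with bounds counted at their value. The difference was 1.3-fold or more, a size outside the range of the controls, for 4 of the 28 genes. The share among all 6449 measured genes was 7.58%, and the 4 genes are too few to be read as an excess over it. Gpam and Cd36 were lower by this size (4.28% of all measured genes) and Fabp1 and Elovl6 higher (3.3%). Of all genes past 1.3-fold, 43.6% were higher with PCN, a share that was 32.9% after median centring and 33.5% after removal of an intensity trend. With values under the floor set to it, no lipid gene reached 1.5-fold, a size that 1.94% of measured genes passed, or 2-fold, which 0.326% passed. Plin5, under the floor with PCN, was 1.63-fold lower when both values were taken as deposited.

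**Figure D1:**
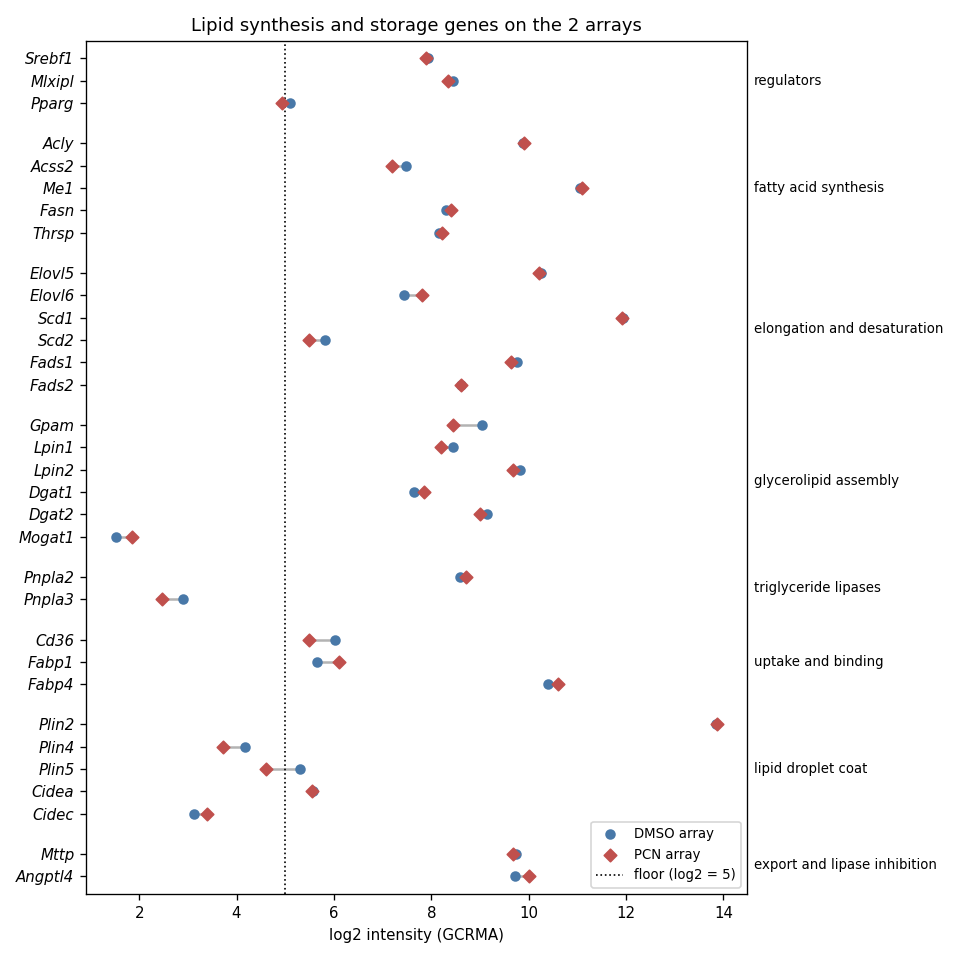
Log2 intensity of the 32 lipid genes with a probe set in the DMSO array (circles) and the PCN array (diamonds), grouped by role, with a dotted line at the floor of 5. The widest gap of a gene above the floor in both arrays is that of Gpam, at 526 with DMSO and 350.4 with PCN on the linear scale.

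Dim genes differed more often than bright ones across the whole array. Of measured genes with a mean log2 level from 5 to under 7, 11.3% were past 1.3-fold, against 7.94% from 7 to under 9 and 2.41% from 9 upward. The lipid genes numbered 6, 11 and 11 in these ranges, with 2, 2 and 0 past 1.3-fold. Cd36 and Fabp1 lay in the dimmest range and Elovl6 and Gpam in the middle one. By the size of the difference, Gpam ranked 126 of 6449, Cd36 172, Fabp1 282 and Elovl6 488.

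**Figure D2:**
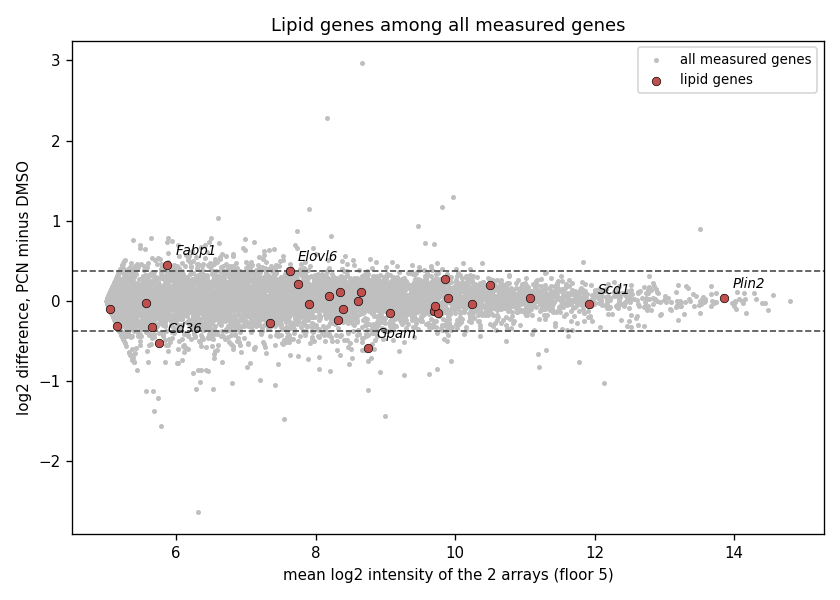
Log2 difference (PCN minus DMSO) against the mean log2 intensity of the 2 arrays for all 6449 measured genes (grey) and the 28 measured lipid genes (red), with dashed lines at 1.3-fold. The lipid genes lie within the cloud of all genes, with Gpam and Cd36 below the lower line, Fabp1 above the upper one and Elovl6 on it.

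The sequences before the starts of the 4 genes past 1.3-fold are shown because many lipid genes are read by nuclear receptors that bind AGGTCA-type half-sites. For comparison, the same stretch of Fasn is given, a classic lipogenic gene that hardly differed. Each line is the 250 bases before an annotated transcript start from RefSeq on GRCm38.p6, 5′ to 3′ on the gene's strand, and Gpam has 2 annotated starts. Capitals mark AGGTCA, the nuclear receptor half-site, and CCAAT, the motif of the factor NF-Y, on either strand (TGACCT and ATTGG when reversed).

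Gpam chr19:55127239-55127488 (minus strand): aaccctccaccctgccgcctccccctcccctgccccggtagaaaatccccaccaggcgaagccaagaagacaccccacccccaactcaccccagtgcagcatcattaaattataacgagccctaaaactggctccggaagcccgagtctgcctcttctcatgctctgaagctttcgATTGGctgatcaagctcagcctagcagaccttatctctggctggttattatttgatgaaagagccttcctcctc

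Gpam chr19:55099478-55099727 (minus strand): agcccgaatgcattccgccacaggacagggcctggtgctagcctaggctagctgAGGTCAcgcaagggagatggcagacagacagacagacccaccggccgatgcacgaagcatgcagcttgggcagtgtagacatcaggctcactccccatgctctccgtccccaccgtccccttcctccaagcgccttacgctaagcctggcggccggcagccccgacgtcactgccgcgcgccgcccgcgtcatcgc

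Cd36 chr5:17835897-17836146 (minus strand): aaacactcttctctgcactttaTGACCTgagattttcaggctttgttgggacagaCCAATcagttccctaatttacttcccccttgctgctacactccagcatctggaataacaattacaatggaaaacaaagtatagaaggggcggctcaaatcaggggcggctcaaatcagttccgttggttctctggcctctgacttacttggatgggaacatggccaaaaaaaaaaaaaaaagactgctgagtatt

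Fabp1 chr6:71199629-71199878 (plus strand): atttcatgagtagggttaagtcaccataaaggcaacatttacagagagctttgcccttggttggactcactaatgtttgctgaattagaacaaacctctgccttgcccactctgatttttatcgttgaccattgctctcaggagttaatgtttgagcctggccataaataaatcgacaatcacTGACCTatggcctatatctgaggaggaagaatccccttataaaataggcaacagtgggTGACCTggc

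Elovl6 chr3:129532136-129532385 (plus strand): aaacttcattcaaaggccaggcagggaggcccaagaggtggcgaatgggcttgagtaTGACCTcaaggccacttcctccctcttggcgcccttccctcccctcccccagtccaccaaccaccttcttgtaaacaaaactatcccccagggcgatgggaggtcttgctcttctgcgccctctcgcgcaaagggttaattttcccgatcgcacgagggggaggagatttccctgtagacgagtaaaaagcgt

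Fasn chr11:120824548-120824797 (minus strand): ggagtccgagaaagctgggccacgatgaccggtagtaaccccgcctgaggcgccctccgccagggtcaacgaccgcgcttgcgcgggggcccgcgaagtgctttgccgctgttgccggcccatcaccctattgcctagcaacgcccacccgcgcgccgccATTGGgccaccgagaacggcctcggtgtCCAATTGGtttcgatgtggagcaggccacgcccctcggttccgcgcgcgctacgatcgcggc

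A half-site stood in 4 of the 5 windows of the 4 genes, the exception being the Gpam window at 55127239. Its first base lay 196 bases before the start in Gpam, 228 in Cd36 and 193 in Elovl6, and Fabp1 had 2, at 67 and 9 bases. Among the other lipid genes, 6 of 30 windows held one, in Acly, Lpin1, Plin2, Plin5 and Pparg. Acly and Plin2 differed by 0.03 and 0.04, less than Fasn at 0.11, whose window held none. The 30 windows include those of Cidec, Mogat1, Plin4 and Pnpla3, genes under the floor in both arrays. None of these held a half-site. Among all 32851 windows of this length the share was 14%. The single half-site was looked at after the values were known. The 4 genes past 1.3-fold were grouped by those values, 2 higher and 2 lower. The share among all genes past 1.3-fold was not counted, so no excess can be read from these windows. Exact direct pairs of AGGTCA spaced by 1, 3 or 4 bases, searched on both strands, were in none of the 35 windows of lipid genes. They stood in 0.0335%, 0.00609% and 0.0152% of all windows. Pairs with any changed base were not counted. In the Fabp1 window, the TGACCT at 67 bases is followed after 1 base by tggcct, which differs from it at 1 base. The other windows were not searched for such looser pairs, so more may be present. The Fasn window held 3 CCAAT motifs, a pair of them overlapping, and CCAAT stood in 17 of the 35 windows (48.6%) against 33.8% of all. Windows were found for 24 of the 32 genes, without Scd1, Scd2, Fads1, Dgat1, Dgat2, Fabp4, Cidea and Angptl4. These matches are letters in a window, and binding was not measured.

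Of the 3 regulators, Srebf1 and Mlxipl lay within 1 SD of the controls, and Pparg gave only a bound. Srebf1, the gene of SREBP-1c and its longer isoform, had intensities of 243 with DMSO and 237 with PCN, a log2 difference of -0.04. Mlxipl, the gene of ChREBP, went from 348 to 325, a difference of -0.10. Pparg, the gene of PPARγ, which drives fat storage and is low in normal hepatocytes, was at 34.3 with DMSO and 30.7 with PCN. The second value is under the floor, so the difference is at least 1.07-fold, and it was -0.16 on the log2 scale as deposited. The array does not separate the isoforms of Srebf1, and the protein's cleavage, on which its activity depends, is not seen in RNA.

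Of 5 measured genes of fatty acid synthesis, 4 were slightly higher with PCN and 1 lower, with a median of 0.04. Acly, which cleaves citrate to acetyl-CoA, went from 938 to 960, a difference of 0.03 that was -0.002 with the intensity trend removed. Me1, the malic enzyme that supplies NADPH, went from 2134 to 2193. Fasn, the fatty acid synthase itself, went from 313 to 339, a difference of 0.11. These sizes are within the control SD. Thrsp, the lipogenic protein S14 that responds to thyroid hormone and carbohydrate, went from 286 to 299, a difference of 0.06. Acss2, the cytosolic acetyl-CoA synthetase that makes acetyl-CoA from acetate, stood apart from the other 4 at 179 and 147, which is 1.22-fold lower with PCN.

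In elongation and desaturation, Elovl6 was higher and the other 5 genes were lower or level, with a median of -0.04. Elovl6, the elongase that converts palmitate to stearate, went from 173 to 225. Its log2 difference of 0.38 lay just inside the 1.3-fold threshold, and it was 0.35 after quantile normalization, 0.35 after median centring and 0.33 after removal of the intensity trend, each just outside it. Elovl5, which elongates polyunsaturated chains, was at 1226 and 1192. Scd1, the main stearoyl-CoA desaturase of liver, was at 3936 and 3842, a difference of -0.04. Its relative Scd2 went from 56.0 to 44.9, which is 1.25-fold lower and the member nearest to the threshold among those outside it. The desaturases of polyunsaturated fatty acids, Fads1 and Fads2, differed by -0.13 and -0.002, with Fads1 at 870 and 798 and Fads2 at 392 in both arrays. Scd1 and Scd2 have closely related sequences, and how far a probe set also reads its relative was not tested.

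Glycerolipid assembly had a median of -0.15, the lowest of the 8 roles among measured genes, with 4 of 5 lower. Gpam, the mitochondrial acyltransferase that adds the first acyl chain to glycerol 3-phosphate, went from 526 to 350.4. Its log2 difference was -0.58, just short of 1.5-fold, and it was -0.61 after quantile normalization and -0.62 after either median centring or removal of the intensity trend, both past 1.5-fold. Lpin1 and Lpin2, phosphatidate phosphatases that make diacylglycerol, were both lower, Lpin1 from 346 to 294 (-0.24) and Lpin2 from 904 to 817 (-0.15). The acyltransferases of the last step differed in opposite directions. Dgat1 went from 199 to 231 (0.22) and Dgat2 from 565 to 509 (-0.15), so that the 2 changes lay 0.37 apart on the log2 scale. Mogat1, a monoacylglycerol acyltransferase, was under the floor at 2.88 and 3.64.

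**Figure D3:**
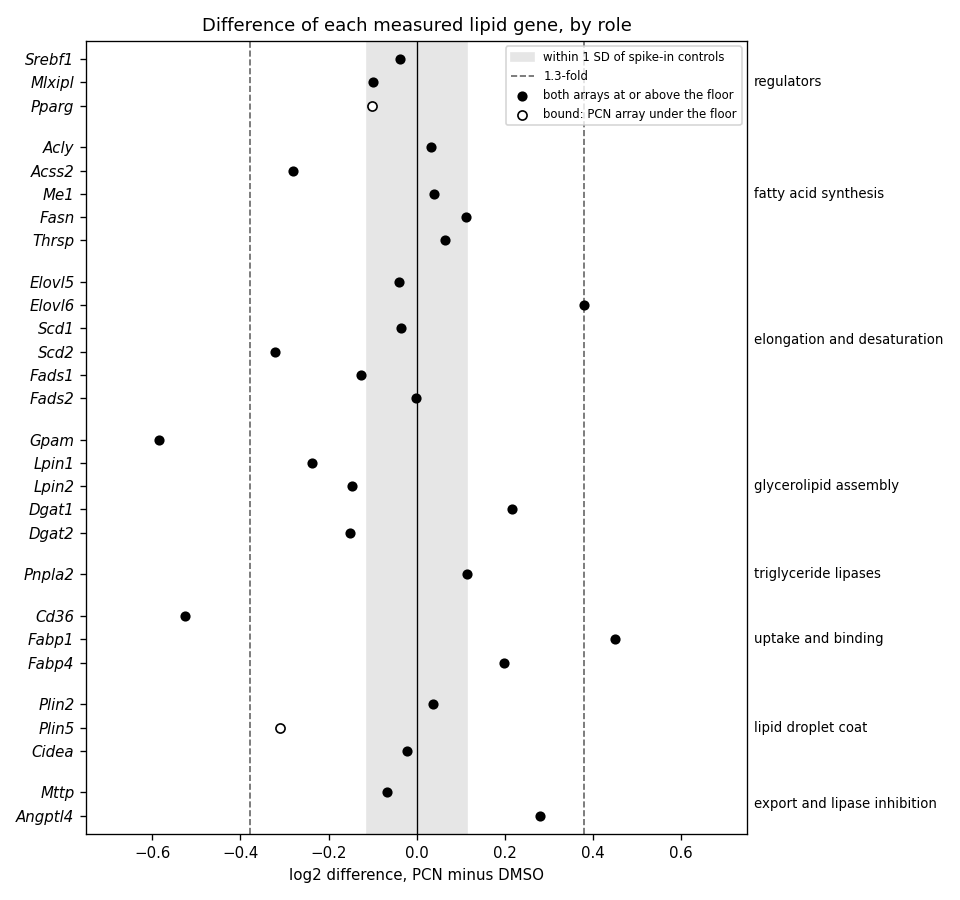
Log2 difference (PCN minus DMSO) of the 28 measured lipid genes by role. The grey band is 1 SD of the control probe sets (0.11), dashed lines are at 1.3-fold, and open circles are bounds of genes under the floor with PCN. Gpam at -0.58 and Cd36 at -0.53 lie farthest to the left and Fabp1 at 0.45 farthest to the right.

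Of the triglyceride lipases, Pnpla2, the adipose triglyceride lipase that starts droplet breakdown, went from 385 to 417, a difference of 0.11. Pnpla3, a droplet-bound relative that is driven by SREBP-1c, was under the floor at 7.52 and 5.53.

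All 3 uptake and binding genes lay outside the control SD, and not in 1 direction. Cd36, a fatty acid translocase of the plasma membrane that PXR is known to regulate, went from 64.9 with DMSO to 45.1 with PCN, which is 1.44-fold lower. Fabp1, the liver fatty acid-binding protein, went from 50.1 to 68.4, which is 1.37-fold higher. The differences of Cd36 and Fabp1, among the lowest and the highest of the measured lipid genes, lay 0.98 apart on the log2 scale. Both genes were dim, with log2 levels from 5.49 to 6.10, and with a floor of 6 their bounds were -0.02 and 0.10. How well the Fabp1 probe set reads its transcript was not tested. Fabp4, the fatty acid-binding protein of adipocytes, macrophages and endothelium, went from 1349 to 1548, a difference of 0.20. The adipocyte markers with a probe set, Adipoq, Lep, Retn and Lipe, were all under the floor, with summed intensities of 21.0 and 23.2. Of 8 Kupffer cell and leukocyte markers, 7 did not reach the floor in either array, and Cd68 was at 1690 and 1626. Of 7 endothelial markers, 3 were measured, none above 42.1 in either array, with Stab2 at -0.19 and Lyve1 and Eng higher with PCN by bounds of 0.31 and 0.21. The list summed to 159 and 178, and its other 4 genes, Pecam1, Kdr, Cdh5 and Tek, were under the floor in both arrays, at 26.1 and 29.9, 14.4 and 17.97, 9.12 and 9.09, and 6.11 and 6.86. The part of other cells in the Fabp4 and Cd36 signals was not tested.

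Of the 5 genes of the lipid droplet coat, 3 were measured, with a median of -0.02. Plin2, the main perilipin of hepatocyte droplets, had intensities of 14634 and 15003, a difference of 0.04 that turned to -0.09 with quantile normalization. Plin5, the perilipin that ties droplets to mitochondria, was at 39.7 with DMSO and 24.4 with PCN, at least 1.24-fold lower and 1.63-fold as deposited. Plin4, a perilipin best known from adipocytes and muscle, at 17.99 and 13.2, was under the floor in both arrays. Cidea, a droplet fusion protein, was at 47.6 and 46.9, and its relative Cidec was under the floor at 8.68 and 10.6. Plin5 and Pparg counted as measured through the DMSO array alone, so a lower value with PCN was the only one they could give.

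For export, Mttp, the transfer protein that loads triglyceride onto apolipoprotein B, went from 856 to 818, a difference of -0.07. Angptl4, a secreted inhibitor of lipoprotein lipase and a PPAR target, went from 844 to 1024, which is 1.21-fold higher at 0.28 on the log2 scale.

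A wider list of 68 further lipid genes, from the same pathway but outside the 35, was also mixed in direction. A named probe set existed for 60 of them, and 44 were measured, with 19 higher and 25 lower and a median of -0.02. Mgll and Lpin3 counted as measured through the DMSO array alone, so they could only count as lower. Past 1.3-fold were 3 of 44 (6.82%), 1 higher and 2 lower, close to the 7.58% of all measured genes. With values under the floor taken as deposited, 4 were past 1.3-fold, and Mgll was 1.51-fold lower. The 4 largest differences upward among genes measured in both arrays were those of Elovl2, Mid1ip1, Agpat5 and Hsd17b12. Elovl2, an elongase of polyunsaturated chains, went from 134 to 179, at 1.33-fold. Mid1ip1, the relative of Thrsp that activates acetyl-CoA carboxylase, went from 992 to 1210 (0.29), where Thrsp differed by 0.06. Agpat5, an acyltransferase of the second assembly step, went from 130 to 157 (0.28), and Hsd17b12, a reductase of the elongation cycle, from 3323 to 3914 (0.24). Tecr, which completes the same cycle, differed by -0.23 and was picked out with its value known.

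The 4 largest downward were those of Slc27a2, Mlycd, Acsl3 and G0s2. Slc27a2, a fatty acid transporter and very long chain acyl-CoA synthetase, went from 499.8 to 372, at 1.34-fold. Mlycd, which degrades malonyl-CoA, went from 50.6 to 38.3, at 1.32-fold. Acsl3, an acyl-CoA synthetase of the endoplasmic reticulum and droplets, went from 47.2 to 37.2 (-0.34), and G0s2, the inhibitor of Pnpla2, from 52.8 to 42.5 (-0.31). All 3 measured transporters of the SLC27 family were lower or level, Slc27a4 at -0.14 and Slc27a5 at -0.01, both named after their values were seen. The other glycerol 3-phosphate acyltransferases, likewise named afterwards, did not share the difference of Gpam. Gpat3 was at 61.7 and 63.1 and Gpat4 at 150.3 and 157, differences of 0.03 and 0.06 against -0.58.

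Among the regulators of the wider list, 5 of 8 measured were higher and 3 lower, none past 1.3-fold. Insig2, which retains SREBP in the endoplasmic reticulum, went from 1026 to 1202 (0.23), and Srebf2, the SREBP of cholesterol synthesis, from 85.4 to 72.1 (-0.24). Nr1h3, the gene of LXRα, was at 73.4 and 85.1 (0.21). The catalytic subunits of AMP-activated kinase, which switches lipogenesis off, differed in opposite directions, Prkaa1 by 0.21 and Prkaa2 by -0.22. Prkaa1 was close to the floor at 33.5 and 38.8, and Prkaa2 was at 729 and 625. These 5 genes were named after their values were seen. The 6 measured droplet genes of the wider list ran from -0.17 to 0.12, all within the range of the controls. Of its 4 export genes, Apob, the structural protein of very low density lipoprotein, was at 5205 and 5034, a difference of -0.05, and Sar1b differed by -0.04. Tm6sf2, which aids the lipidation of that particle, went from 71.0 to 58.3 (-0.28), and Pdia4, a protein disulfide isomerase, from 106 to 116 (0.13).

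**Figure D4:**
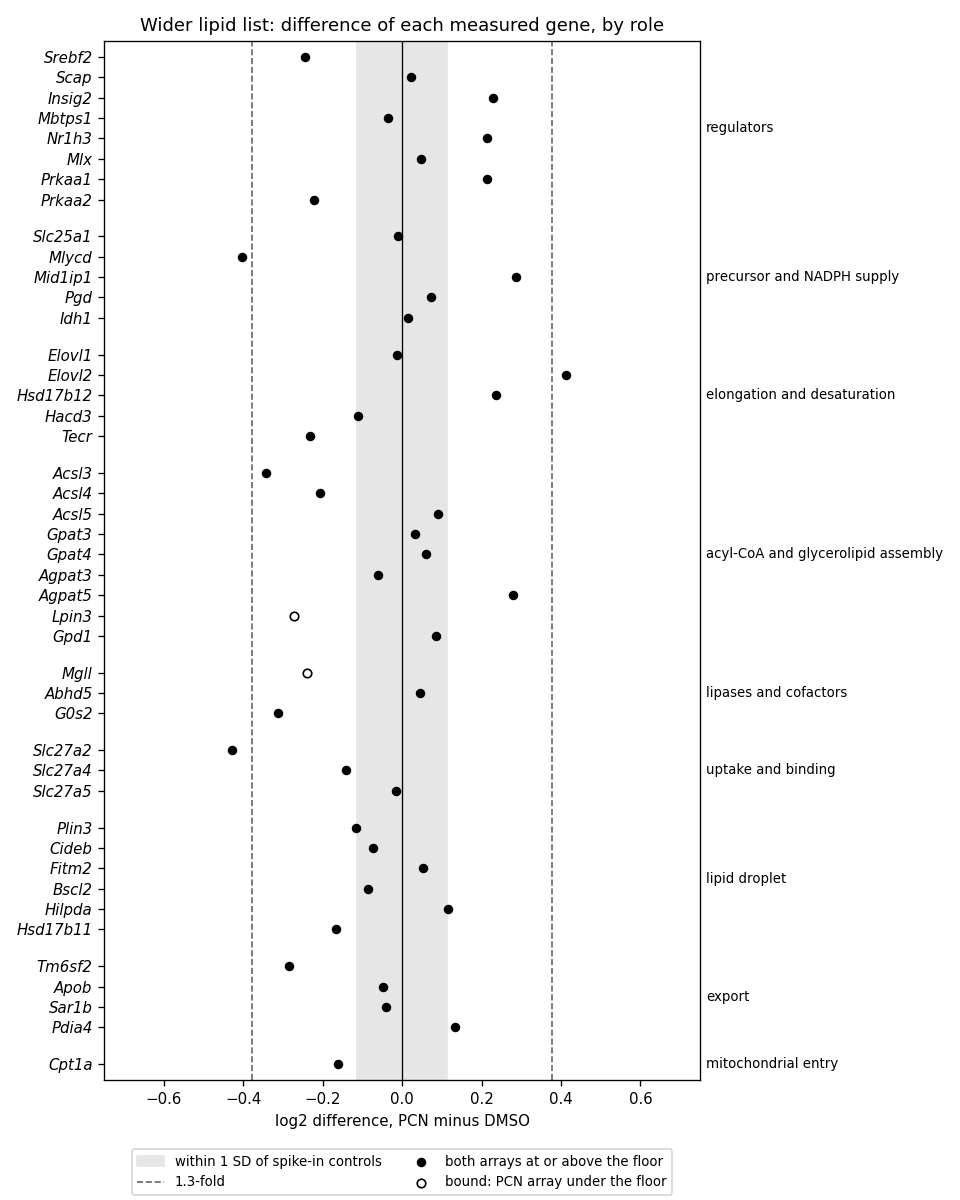
Log2 difference (PCN minus DMSO) of the 44 measured genes of the wider lipid list, by role, with the grey band at 1 SD of the control probe sets and dashed lines at 1.3-fold. Open circles are bounds of genes under the floor with PCN. Only Elovl2, at 0.41, lies right of the upper line, and Slc27a2, at -0.43, and Mlycd, at -0.40, lie left of the lower one.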

How the data were processed

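The deposited values are intensities of 2 Affymetrix arrays on a linear scale, made by the authors with GCRMA 2.2.0, per the submitters' processing notes. GCRMA corrects background, normalizes the arrays to each other and gives 1 value per probe set, so differences in RNA content per cell are lost. For the probe set definition and the build, the labels' protocols give nothing (not given in the sources used here). Of 16395 probe sets, 15644 had 1 gene symbol, 64 were Affymetrix controls and 687 were unnamed here. All 32 lipid genes had the same symbol under their Entrez number in RefSeq (GRCm38.p6). Log2 values, the floor of 5 and the differences were computed in Python 3.11.15 (pandas 2.3.3, numpy 2.4.6), and the intensity trend by loess in statsmodels 0.14.6 (fraction 0.3). The calculation was tested on simulated data in which 200 genes above a log2 level of 7 were changed 2-fold. Smaller sizes and dimmer levels, such as those of the lipid genes past 1.3-fold, were not simulated. With 1 array per group, no test, error or p-value was possible. Treatment and batch cannot be told apart, and precision is limited by the number of arrays. The members, lists, floor and size threshold were chosen with earlier results of these data known. All 35 genes were to be named, with 4 genes each way from the wider list, 2 CYP3A genes and cell type markers; Cyp3a25 was 7.82-fold higher. The other marker lists, stellate cell and bile duct, had 1 of 7 and 2 of 5 probe sets measured: Acta2 was lower by a bound of -0.19, and the bile duct markers Krt19 and Sox9 differed by 0.40 and -0.42, both past 1.3-fold. Of 6 measured reference genes, all were within 0.11 of 0.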

Additional observations from a re-analysis of the deposited data

How the results depend on the processing

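All alternatives were planned. Lipid genes split 11 higher to 17 lower, and under the alternatives 10 to 13 were higher and 13 to 19 lower. Of 192 values of lipid genes under the alternatives, 6 moved by more than the control SD. Signs turned for 3 genes close to 0, Acly, Cidea and Plin2, the last to -0.09 with quantile normalization. With a floor of 6, 2 lipid genes were past 1.3-fold, 1 higher and 1 lower, since the bounds of Cd36 and Fabp1 shrank to -0.02 and 0.10. With quantile normalization, median centring or the trend removed, 1 was higher, Elovl6 dropping out, and with quantile normalization 1 gene of the wider list was past 1.3-fold. With a floor of 4 this list had 5. Without a floor, 7 lipid genes (5 lower), 5 of the wider list and 1144 of all genes were past 1.3-fold, and the lipase median was -0.17, since genes too dim to measure were added. At 1.5-fold the counts were 0 lipid genes in either direction, 0 of the wider list and 125 of all genes, and at 2-fold 0, 0 and 21. No replicate could be left out, which needs a second array. No paired analysis was possible because there was a single array on either side. Signal near the floor limits Cd36, Fabp1, Scd2, Cidea, Plin5 and Pparg. In the wider list it limits, among others, Mlycd, Acsl3, G0s2, Gpat3 and Prkaa1. With a floor of 6 Mlycd was not measured, and 1 gene of the wider list was lower past 1.3-fold.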

Other observations

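The E-box CACGTG, the core of the element read by ChREBP, was searched on both strands of the same promoter windows. It stood in 3 of the 35 windows of lipid genes (8.57%), those of Elovl5, Lpin2 and Mlxipl, against 6.02% of all windows. These 3 genes differed by -0.04, -0.15 and -0.10 on the log2 scale. Of 3 control probe sets for 18S ribosomal RNA, the middle one went from 69.6 to 55.2 with PCN, a log2 difference of -0.34. The 5' one went from 49.5 to 31.1, the second value under the floor, and the 3' one was under the floor in both arrays at 27.6 and 20.7.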
